A study of Rattus norvegicus with 8 samples.

Results

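The genes described here are 10 components of the myostatin, activin and follistatin pathway, chosen by gene symbol: the ligand genes Mstn and Inhbb, the binding protein genes Fst, Fstl1 and Fstl3, the receptor genes Acvr2a, Acvr2b and Acvr1b, and the signalling genes Smad3 and Smad7. They had 14 probes, of the 30367 probes for 26324 genes on the array. A total of 7 of the 10 genes, each through 1 probe, gave enough signal to be tested, against 10894 of the 26324 genes. The controls were castrated male Wistar rats, aged 120 ± 12 days. The treated rats were also castrated, and received 1 subcutaneous dose of 4 mg/kg testosterone propionate, an androgen ester, in corn oil, 8 h or 24 h before. Each of the 8 arrays carried treated and control RNA in different dyes, with 4 arrays per time, so a log2 ratio here sets treated against control RNA of the same array. The treated RNA was in Cy3 on replicates 1 and 2 and in Cy5 on replicates 3 and 4 at 8 h, and the other way round at 24 h. The arrays of a time are labelled as biological replicates. Whether a sample is an animal or a pool, whether controls received oil, and whether control RNA was shared between arrays is not given in the sources used here, so the p-values measure only the spread between these samples.

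Myostatin and the activins are secreted ligands of the TGF-beta superfamily that limit the size of muscle fibres. They bind the type II receptors encoded by Acvr2a and Acvr2b, which recruit type I receptors such as the one encoded by Acvr1b, and these phosphorylate SMAD2 and SMAD3, which then enter the nucleus with SMAD4. Follistatin and follistatin-like 3 bind the ligands outside the cell and keep them from their receptors, and SMAD7 is an inhibitory SMAD that signalling itself induces.

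The tissue is named only in the series title, which speaks of muscle, while the labels call the samples castrated rat cells. Of 14 skeletal muscle fibre markers, 11 were measured, among them Acta1 and Ckm, the skeletal actin and muscle creatine kinase genes. The other three were Myh2 and Mylpf, which were too dim, and Ryr1, for which no probe was matched. None of 6 markers of male accessory gland and epithelium, such as Krt8 and Pbsn, was bright enough to be measured. At 8 h, 2 arrays stood apart. Replicate 1 had an SD of the log2 ratio over genes of 0.444, against 0.179 to 0.304 on the other arrays. Replicate 2 correlated across genes with replicates 1, 3 and 4 at 0.283, -0.125 and -0.036, while these correlated with each other at 0.292 to 0.374, and its muscle fibre marker median was 0.60 against -0.38 to -0.03. All arrays of a time came from the same slide, and the slide and the time point cannot be told apart. Fewer cells of a type and less RNA per cell cannot be told apart in such bulk RNA either.

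The probes are 60 bases long, and where in the transcript a probe lies decides what it measures. The first 30 bases, as the files give them, are shown for Fst, the gene that passed the test, for Mstn, and for both probes of the genes whose probes disagreed in brightness. Capitals mark the letters AATAAA, the polyadenylation signal found near the end of many transcripts.
Fst (A_64_P154605): gaggaggaagaggaagaccaggactacagc
Mstn (A_43_P11952): gaacaaataatatatgggaaaattccagcc
Fstl1, bright (A_44_P104821): attcgtggagcagaatgaaacagccgtcaa
Fstl1, dim (A_43_P12426): agtatttgcttgtacggcagcaaatcttat
Acvr2b, bright (A_64_P225608): taaagagtccagcatctaagcccaggacac
Acvr2b, dim (A_43_P15824): atcatcacgtggaacgagctgtgtcatgtg
Inhbb, bright (A_64_P030644): agtgaccctttgactgtctgtcacttgggt
Inhbb, dim (A_44_P576822): tttAATAAAgccctccttaggttctgtttc

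The motif was searched on the strand as given and overlaps none other. It stood in 2 of the 14 probes, the dim probes of Inhbb and Fstl1 (in the latter beyond the bases shown), and in 8.39% of all 30367 probes, which have the same length. By the coordinates in the files, on the rn4 build, the starts of the paired probes lay 7581 bases apart for Fstl1 (chr11:64689386-64689445 for the bright probe), 3234 for Acvr2b (chr8:124395674-124395733), 1107 for Inhbb (chr13:32172165-32172224) and 583 for Fstl3. The Fst probe lay at chr2:46542246-46542305 and the Mstn probe at chr9:45426831-45426890. No rn4 annotation was used here, so exon and UTR positions are not given.

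At 24 h after testosterone propionate, Fst rose, and no other gene of the 10 passed the test. Follistatin RNA was 1.65-fold higher in treated than in control RNA, and higher on 4 of 4 arrays. The ligand genes Mstn and Inhbb and the type I receptor gene Acvr1b lay close to 0, with 95% intervals between -0.26 and 0.20 on the log2 scale. These genes were dim, and the offset of 50 added to every intensity shrinks ratios there, so the intervals do not bound the change in RNA. With the scanner software's processed signals the values were -0.005 for Mstn, -0.21 for Inhbb and -0.16 for Acvr1b, and none passed. Acvr2b and Smad7 had log2 ratios of -0.41 and -0.38, below 0 on every array, and Fstl1 had a log2 ratio of 0.26, above 0 on every array, but none of the 3 passed the adjusted threshold. The test was limma's moderated test over all 10882 genes with values on 2 or more arrays of each time. P-values were adjusted by Benjamini-Hochberg, and an adjusted p of 0.05 was the threshold. The test called 1 of 7 genes higher and 0 lower at 24 h, beside 7.03% of all genes called (4.13% higher and 2.90% lower). With 7 genes, 1 call lies near that background. At an unadjusted p under 0.05 there were 4 of the 7 (Fst, Fstl1, Acvr2b and Smad7), against 22.1% of all genes. At 8 h 2 of the 7 had an unadjusted p under 0.05 (Fstl1 and Acvr2b), against 17.1% of all genes. None of the 7 passed there, and 0.0276% of all genes, or 3, passed. That last count rested on replicate 2: without it 1227 genes passed at 8 h, among them 1 of the 7 (Acvr2b), and leaving out any other single array gave 0 or 1 genes. The median log2 ratio of the 7 genes was -0.02 at 24 h and -0.03 at 8 h, beside 0.00 and -0.01 over all genes.

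**Figure D1:**
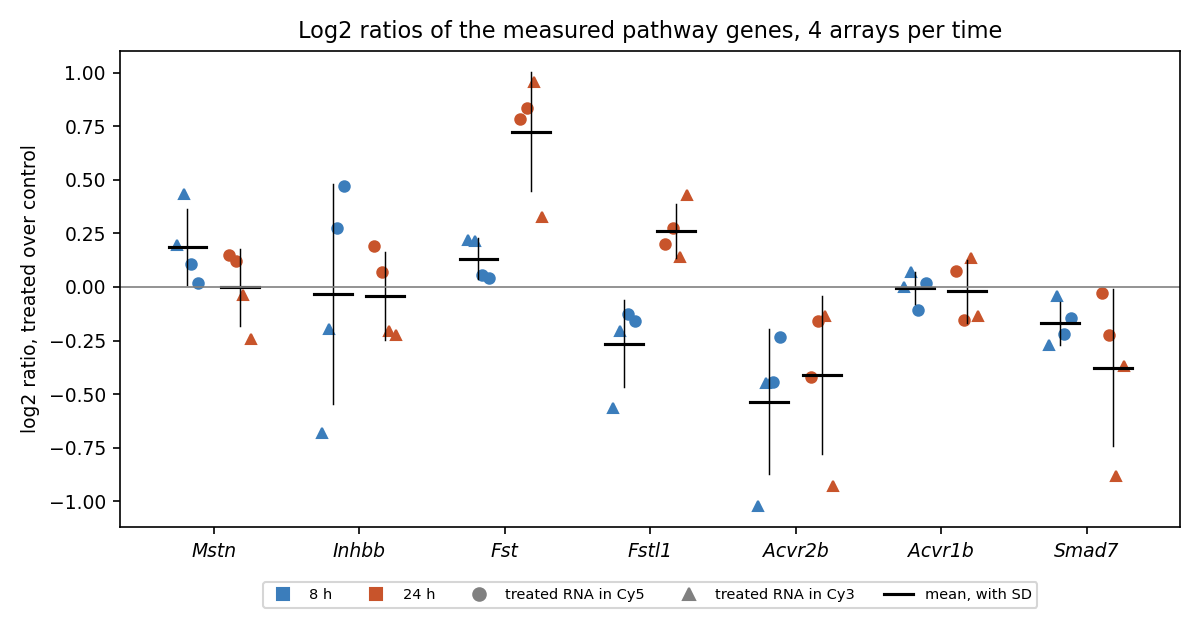
Log2 ratio of treated over control RNA (vertical axis) on each array for the 7 measured genes, 8 h in blue and 24 h in orange, with circles for treated RNA in Cy5, triangles for Cy3, and bars for the mean and SD of 4 arrays. Fst lay above 0 on every array at 24 h (0.32 to 0.96), Acvr2b lay below 0 on every array of both times, and Inhbb split by dye at both times.

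Among the ligands, Mstn encodes myostatin. At 8 h its log2 ratios in replicates 1 to 4 were 0.19, 0.43, 0.11 and 0.02. At 24 h they were 0.15, 0.12, -0.04 and -0.24. All 4 arrays lay above 0 at 8 h and 2 of 4 at 24 h. The fitted log2 ratio was 0.19 at 8 h (SE 0.09, 95% interval -0.02 to 0.39, limma adjusted p = 0.315) and -0.00 at 24 h (SE 0.09, -0.20 to 0.20, adjusted p = 0.998). Log2 intensities at 8 h were 6.15 to 6.54 in control and 6.34 to 6.62 in treated RNA. At 24 h control RNA lay at 6.29 to 6.64 and treated RNA at 6.26 to 6.73. Control and treated levels overlapped at both times. These levels are near the lower end of the scale, where the offset of 50 added to every intensity shrinks a ratio. With an offset of 10 the Mstn log2 ratio at 8 h was 0.38 (adjusted p = 0.219). With the scanner software's processed signals, whose background and dye corrections differ as well, it was 0.71 (adjusted p = 0.258). At 24 h it stayed between -0.06 and 0.14 over the 18 alternatives tried.

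Inhbb encodes the beta B subunit of activin B. Its bright probe followed the dye rather than the time. At 8 h the log2 ratios were -0.68 and -0.19 with treated RNA in Cy3 (replicates 1 and 2) and 0.28 and 0.47 with treated RNA in Cy5 (replicates 3 and 4). At 24 h they were 0.19 and 0.07 with treated RNA in Cy5 (replicates 1 and 2) and -0.21 and -0.22 with treated RNA in Cy3 (replicates 3 and 4). The fitted dye coefficient, the difference in log2 ratio between the orientations, was 0.58, against 0.00 for Fst and 0.01 for Mstn. With the dye in the fit, Inhbb had a log2 ratio of -0.03 at 8 h (95% interval -0.26 to 0.19, adjusted p = 0.881) and -0.04 at 24 h (-0.26 to 0.18, adjusted p = 0.868). Its levels were also low enough for the offset to shrink a ratio. With the processed signals the 24 h value was -0.21 (limma adjusted p = 0.607).

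The dim Inhbb probe, the one with AATAAA, did not follow this pattern at 24 h. Its log2 ratios there were -0.20, -0.26, -0.32 and -0.31, below 0 in both dye orientations. Control levels were 6.19 to 6.44 and treated levels 5.98 to 6.12, with no overlap. It was well above background in 2 of 4 control samples and 0 of 4 treated samples at 24 h. Set against the lowest signal measured well above background, treated RNA was 1.19-fold lower by this probe. This value takes the mean of the control group against, on each array, the higher of that lowest signal and the treated value. Since only 2 of the 4 control samples were well above background, it is not a minimum fall. The dim probe is below the filter, so it has no test. The bright probe, which was tested, had a log2 ratio of -0.04 at 24 h. At 8 h this probe was well above background in 1 of 4 treated and 0 of 4 control samples, with log2 ratios of 0.33, -0.02, -0.02 and -0.05.

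Among the binding proteins, Fst encodes follistatin, which holds myostatin and activins away from their receptors. At 8 h its log2 ratios in replicates 1 to 4 were 0.22, 0.21, 0.06 and 0.04 (SD 0.10). At 24 h they were 0.79, 0.84, 0.96 and 0.32 (SD 0.28). Every 24 h array lay above every 8 h array, with replicate 4 the lowest at 24 h. Control log2 intensities at 24 h were 7.59, 7.67, 7.56 and 8.00, and treated ones 8.38, 8.51, 8.52 and 8.32. The lowest treated sample lay above the highest control sample, and the 24 h ratio was smallest on the array whose control was brightest.

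The fitted log2 ratio of Fst was 0.73 at 24 h (SE 0.10, 95% interval 0.50 to 0.95, limma adjusted p = 0.00302). By p-value it ranked 108 of the 10882 genes tested. At 8 h the log2 ratio was 0.13 (SE 0.10, -0.09 to 0.36, adjusted p = 0.498). Fst passed at 24 h under all 18 alternatives, with log2 ratios of 0.63 to 1.07 and adjusted p-values of 0.000262 to 0.0365. Other filters and probe rules, no dye coefficient, the 24 h arrays alone and leaving out an 8 h array left the log2 ratio itself unchanged. Those settings varied only its p-value. Over the 4 RNA groups its mean log2 intensity was lowest in the 8 h controls at 7.34 (SD 0.17), then 7.47 (SD 0.15) in 8 h treated, 7.70 (SD 0.20) in 24 h control and 8.43 (SD 0.10) in 24 h treated RNA. The control samples of the 2 times did not overlap (7.09 to 7.48 at 8 h, 7.56 to 8.00 at 24 h), so the controls of 24 h also lay above those of 8 h.

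**Figure D2:**
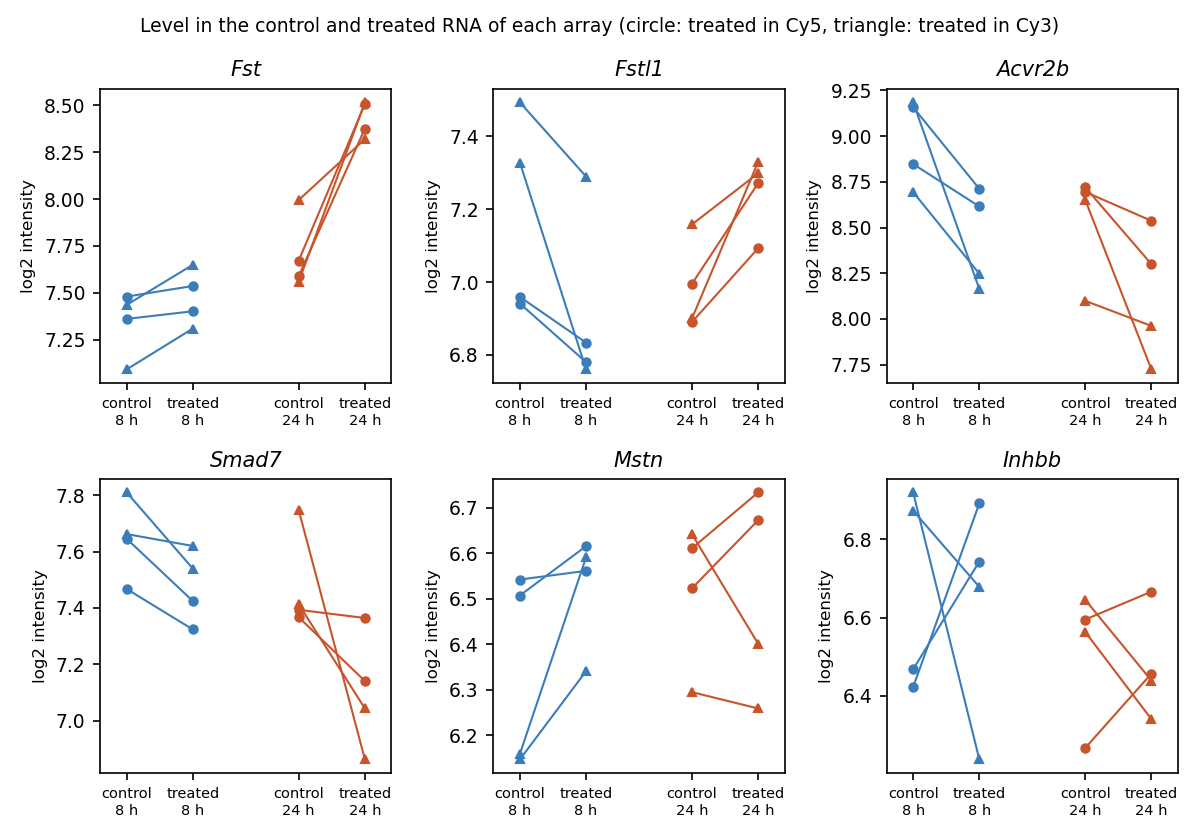
Log2 intensity in the control and treated RNA of each array for 6 genes, with a line joining the 2 samples of an array, 8 h in blue and 24 h in orange, circles for treated RNA in Cy5 and triangles for Cy3. Fst rises on all 4 arrays at 24 h from 7.56 to 8.00 in controls to 8.32 to 8.52 in treated RNA, and the lines of Inhbb cross by dye.

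Fstl1 encodes follistatin-like 1, a secreted glycoprotein related to follistatin in sequence and made by many mesenchymal cells. Its log2 ratios at 8 h were -0.57, -0.20, -0.13 and -0.16 (SD 0.20). At 24 h they were 0.20, 0.28, 0.14 and 0.43 (SD 0.12). It was thus lower in treated RNA on every array at 8 h and higher on every array at 24 h. Control RNA at 8 h lay at 6.94 to 7.49 and treated RNA at 6.76 to 7.29 (log2 intensity). At 24 h control RNA lay at 6.89 to 7.16 and treated RNA at 7.09 to 7.33, so the levels overlapped at both times. The fit gave -0.26 at 8 h (SE 0.09, 95% interval -0.46 to -0.07, adjusted p = 0.264) and 0.26 at 24 h (SE 0.09, 0.07 to 0.45, adjusted p = 0.101). Without replicate 1 at 8 h the 8 h log2 ratio was -0.16 (adjusted p = 0.905) and the adjusted p at 24 h was 0.0393, so the 24 h value then passed. Without replicate 2 the 8 h log2 ratio was -0.31 (adjusted p = 0.0772). The dim Fstl1 probe was well above background in 1 treated sample at 24 h and in no other sample, and its log2 ratios of -0.13 to 0.16 show no direction.

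Fstl3, which encodes follistatin-like 3, a further inhibitor of myostatin and activins, was not well above background by either of its 2 probes in any sample. The type II receptor gene Acvr2a and Smad3, which encodes the receptor-activated SMAD of this pathway, were likewise not well above background in any sample by their single probes. The log2 ratios of these 4 probes ranged from -0.37 to 0.26 over the 8 arrays. No fold is given for these 3 genes, since neither control nor treated RNA was well above background.

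Among the receptors, Acvr2b encodes the type II receptor with the higher affinity for myostatin. Its bright probe gave the lowest values of the set. At 8 h the log2 ratios were -1.02, -0.45, -0.45 and -0.23 (SD 0.34), and at 24 h they were -0.42, -0.16, -0.14 and -0.93 (SD 0.37). All 8 arrays lay below 0, and replicate 1 at 8 h and replicate 4 at 24 h were the lowest. Control log2 intensities were 9.19, 8.69, 9.16 and 8.85 at 8 h, with 8.16, 8.25, 8.71 and 8.62 in treated RNA. At 24 h controls were at 8.72, 8.70, 8.10 and 8.65, and treated RNA at 8.30, 8.54, 7.96 and 7.72. Within each array treated RNA was the lower, while the ranges of the groups overlapped.

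The fitted log2 ratio of Acvr2b was -0.54 at 8 h (SE 0.13, 95% interval -0.83 to -0.24, limma adjusted p = 0.264). At 24 h it was -0.41 (SE 0.13, -0.71 to -0.12, adjusted p = 0.0957). By unadjusted p it ranked 92 at 8 h. Without replicate 1 at 8 h the 8 h log2 ratio was -0.41 (adjusted p = 0.905), and without replicate 2 it was -0.64 and passed (adjusted p = 0.0270), as 1227 genes did. The adjusted p at 24 h was 0.0486 without replicate 1 at 8 h and 0.0429 without replicate 3 at 24 h. With median centring in place of loess, the log2 ratio was -0.16 at 8 h and -0.07 at 24 h. Under that scaling the median gene itself had a log2 ratio of 0.12 at 8 h and 0.15 at 24 h. The dye coefficient of Acvr2b was 0.32.

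The dim Acvr2b probe was well above background in 1 control and 2 treated samples at 8 h, and in 0 control samples and 1 treated sample at 24 h. Its log2 ratios ran from -0.16 to 0.07 over the 8 arrays, on both sides of 0. The lower values of Acvr2b in treated RNA thus rest on the bright probe alone.

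Acvr1b encodes ALK4, the type I receptor of activins and one of those used by myostatin. Its log2 ratios at 8 h were 0.00, 0.07, -0.11 and 0.02. Those at 24 h were 0.08, -0.16, 0.14 and -0.13. The arrays lay on both sides of 0 at each time. The fitted log2 ratio was -0.00 at 8 h (95% interval -0.17 to 0.16, adjusted p = 0.982) and -0.02 at 24 h (-0.18 to 0.14, adjusted p = 0.923). The probe was dim, well above background in 2 to 4 of 4 samples per group, so the offset shrinks its ratios too. With the processed signals the 24 h value was -0.16 (limma adjusted p = 0.764).

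Among the SMADs, Smad7 encodes the inhibitory SMAD that turns off activated type I receptors. At 8 h its log2 ratios were -0.27, -0.04, -0.22 and -0.14 (SD 0.10), and at 24 h -0.03, -0.23, -0.88 and -0.37 (SD 0.37). All 8 arrays lay below 0, with replicate 3 the lowest at 24 h. At 24 h the mean was -0.13 with treated RNA in Cy5 and -0.63 with treated RNA in Cy3. At 8 h the 2 orientations were alike, at -0.18 and -0.16. The dye coefficient of Smad7 was 0.24. Control log2 intensities at 24 h were 7.39, 7.37, 7.75 and 7.41, and treated ones 7.36, 7.14, 6.86 and 7.04. The groups did not overlap, though the highest treated sample was only just below the lowest control. The fitted log2 ratio was -0.38 at 24 h (SE 0.11, 95% interval -0.62 to -0.14, adjusted p = 0.0658) and -0.17 at 8 h (-0.41 to 0.07, adjusted p = 0.417). With median centring the 8 h value was 0.06, on the other side of 0, and the 24 h value -0.14. With the processed signals the 24 h value was -0.81 and passed (adjusted p = 0.0442). It was -0.22 without replicate 3 at 24 h (adjusted p = 0.247).

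**Figure D3:**
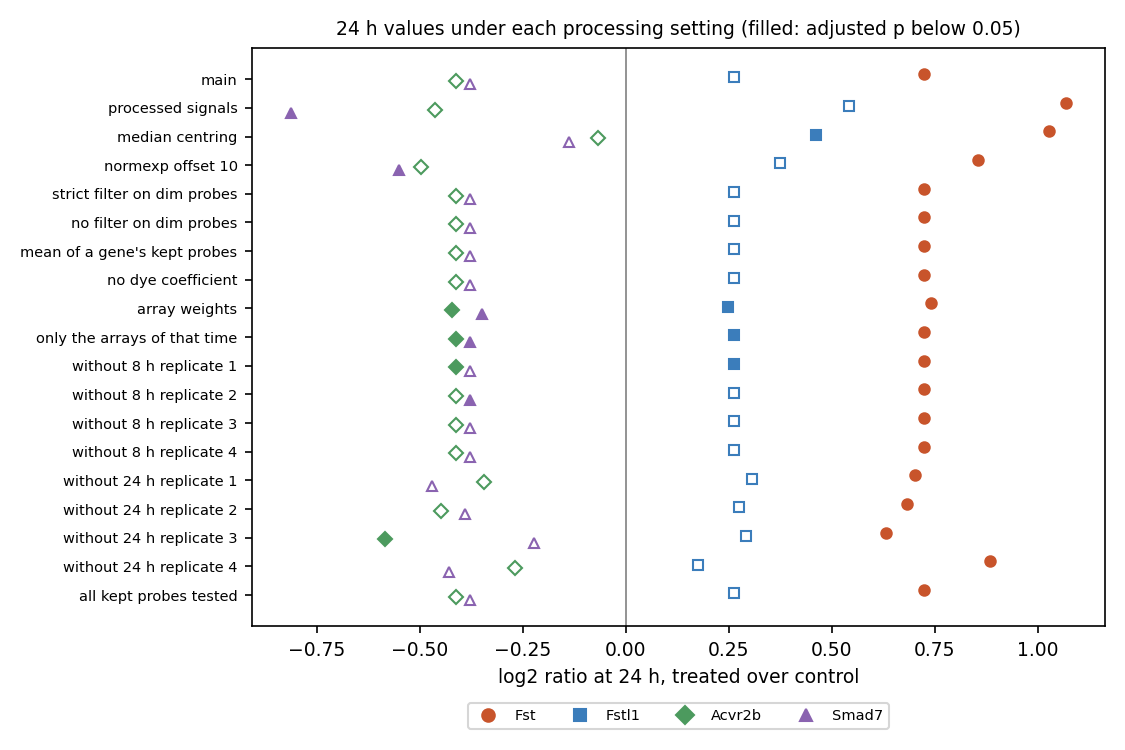
Log2 ratio at 24 h (horizontal axis) of Fst, Fstl1, Acvr2b and Smad7 under the processing used and each of 18 alternatives (vertical axis), filled where the limma adjusted p was below 0.05. Fst is filled in every row, between 0.63 and 1.07, while the other three are filled in 4 or 5 of the 18 alternatives and keep their side of 0.

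The difference between the times was tested as the difference of the 24 h and 8 h coefficients. None of the 7 genes passed by limma, against 1.30% of all genes. At an unadjusted p under 0.05 there were 2, Fst and Fstl1, against 16.2% of all genes. The Fst log2 ratio was higher at 24 h than at 8 h by 0.59 (95% interval 0.28 to 0.91, limma adjusted p = 0.0722). The Fstl1 log2 ratio was higher by 0.53 (0.26 to 0.80, limma adjusted p = 0.0701). For the other genes the difference ran from -0.21 for Smad7 to 0.13 for Acvr2b, with adjusted p-values of 0.501 to 0.983. So the rise of Fst at 24 h is not shown to differ from its 8 h value at the adjusted threshold. The Fst difference passed without replicate 4 at 24 h (0.75, adjusted p = 0.0165), and the Fstl1 difference passed without replicate 2 at 8 h (0.57, adjusted p = 0.0415).

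Of 80 other genes of the wider pathway, listed by role, 75 had a probe and 40 were tested. At 24 h 2 rose, 4 fell and 34 did not pass, so 15% were called, beside 7.03% of all genes. Their median log2 ratio was 0.02. At 8 h 0 of 40 passed by limma, and 6 (15%) had an unadjusted p under 0.05, against 17.1% of all genes. Between the times, 1 (2.5%) passed, beside 1.30% of all genes. The count at 24 h depended on single arrays: it was 1 without replicate 1 or without replicate 3 at 24 h, 2 without replicate 2 at 24 h, and 3 without replicate 3 or replicate 4 at 8 h.

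Of 8 other ligand and processing genes, 1 fell at 24 h, beside 2.90% of all genes. In lists by role this short, 1 or 2 calls are no result about the role. Furin encodes the protease that cleaves the propeptide of myostatin and related ligands. It fell by 0.35 on the log2 scale at 24 h (adjusted p = 0.0338), with arrays from -0.52 to -0.12. Furin did not pass with the processed signals, with median centring or with no dye coefficient. Nor did it pass without replicate 3 or 4 at 8 h, or without any 1 array of 24 h. The activin beta A gene Inhba did not pass (-0.05, adjusted p = 0.816). Tll1, a protease of the family that frees latent myostatin, had -0.14 (adjusted p = 0.335), and Bmp4 had 0.12 (adjusted p = 0.389).

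Among the other binding protein genes, the latent TGF-beta binding protein genes Ltbp1 (0.16, adjusted p = 0.256) and Ltbp4 (-0.13, adjusted p = 0.341) did not pass, nor did the matrix proteoglycan gene Fmod (-0.18, adjusted p = 0.663).

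None of 4 other receptor genes passed, and none had an unadjusted p under 0.05 at 24 h by limma. The type II TGF-beta receptor gene Tgfbr2 had the lowest log2 ratio, -0.21 at 24 h (adjusted p = 0.241) and -0.23 at 8 h (adjusted p = 0.279). Another measured Tgfbr2 probe had -0.07 at 24 h (adjusted p = 0.550) and -0.05 at 8 h (adjusted p = 0.705), from the limma fit over all probes. The type I receptor genes Bmpr1a (0.06), Acvrl1 (0.04) and Tgfbr1 (-0.03) lay nearer 0.

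Of 11 other SMAD and SMAD regulator genes, 2 fell at 24 h, beside 2.90% of all genes. Ppp1r15a encodes GADD34, a phosphatase subunit of the stress response that SMAD7 can bring to the type I TGF-beta receptor. It fell by 0.68 on the log2 scale at 24 h (SE 0.11, adjusted p = 0.00549), with arrays from -1.13 to -0.42. At 8 h it had 0.20 (adjusted p = 0.343), and the difference between times, -0.89, passed (adjusted p = 0.0241). That difference was lost without any 1 of replicates 3 and 4 at 8 h and replicates 1, 2 and 3 at 24 h. Tgif1, a corepressor of SMAD2 and SMAD3, fell by 0.31 (adjusted p = 0.0243). With median centring neither Ppp1r15a nor Tgif1 passed at 24 h. Tgif1 also did not pass there without replicate 1, 3 or 4 at 24 h. Pmepa1, which encodes a membrane protein that sequesters SMAD2 and SMAD3, had 0.26 (adjusted p = 0.0702), and the corepressor gene Ski had 0.28 (adjusted p = 0.103), each above 0 on 4 of 4 arrays. Other measured probes of Ski had 0.25 (adjusted p = 0.126) and 0.02 (adjusted p = 0.904) at 24 h, from the limma fit over all probes.

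Of 10 other genes listed as targets, 1 rose and 1 fell at 24 h, beside 4.13% and 2.90% of all genes. Myog, the myogenic transcription factor myogenin, which myostatin represses in cultured myoblasts, rose by 0.37 at 24 h (adjusted p = 0.0399), with arrays from 0.13 to 0.72. Myog did not pass with median centring or a stricter filter. Nor did it pass without replicate 3 or 4 at 8 h, or without any 1 array of 24 h. Cdkn1b, the cell cycle inhibitor p27, fell by 0.40 (adjusted p = 0.0128), with arrays from -0.59 to -0.28. Cdkn1b did not pass with median centring or without replicate 1, 2 or 3 at 24 h. Ccn2, connective tissue growth factor, a target of TGF-beta, had -0.30 (adjusted p = 0.0564). Fbxo30, a ubiquitin ligase gene repressed by bone morphogenetic protein signalling, had -0.14 (adjusted p = 0.235).

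Cdkn1a, the cell cycle inhibitor p21, had 2 measured probes that disagreed. The brighter one had a log2 ratio of -0.25 at 24 h (adjusted p = 0.317) and the other one 0.60 (adjusted p = 0.0326), both from the fit over all probes. Cdkn1a is named because of this disagreement, seen in the data, and no direction is given for it.

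**Figure D4:**
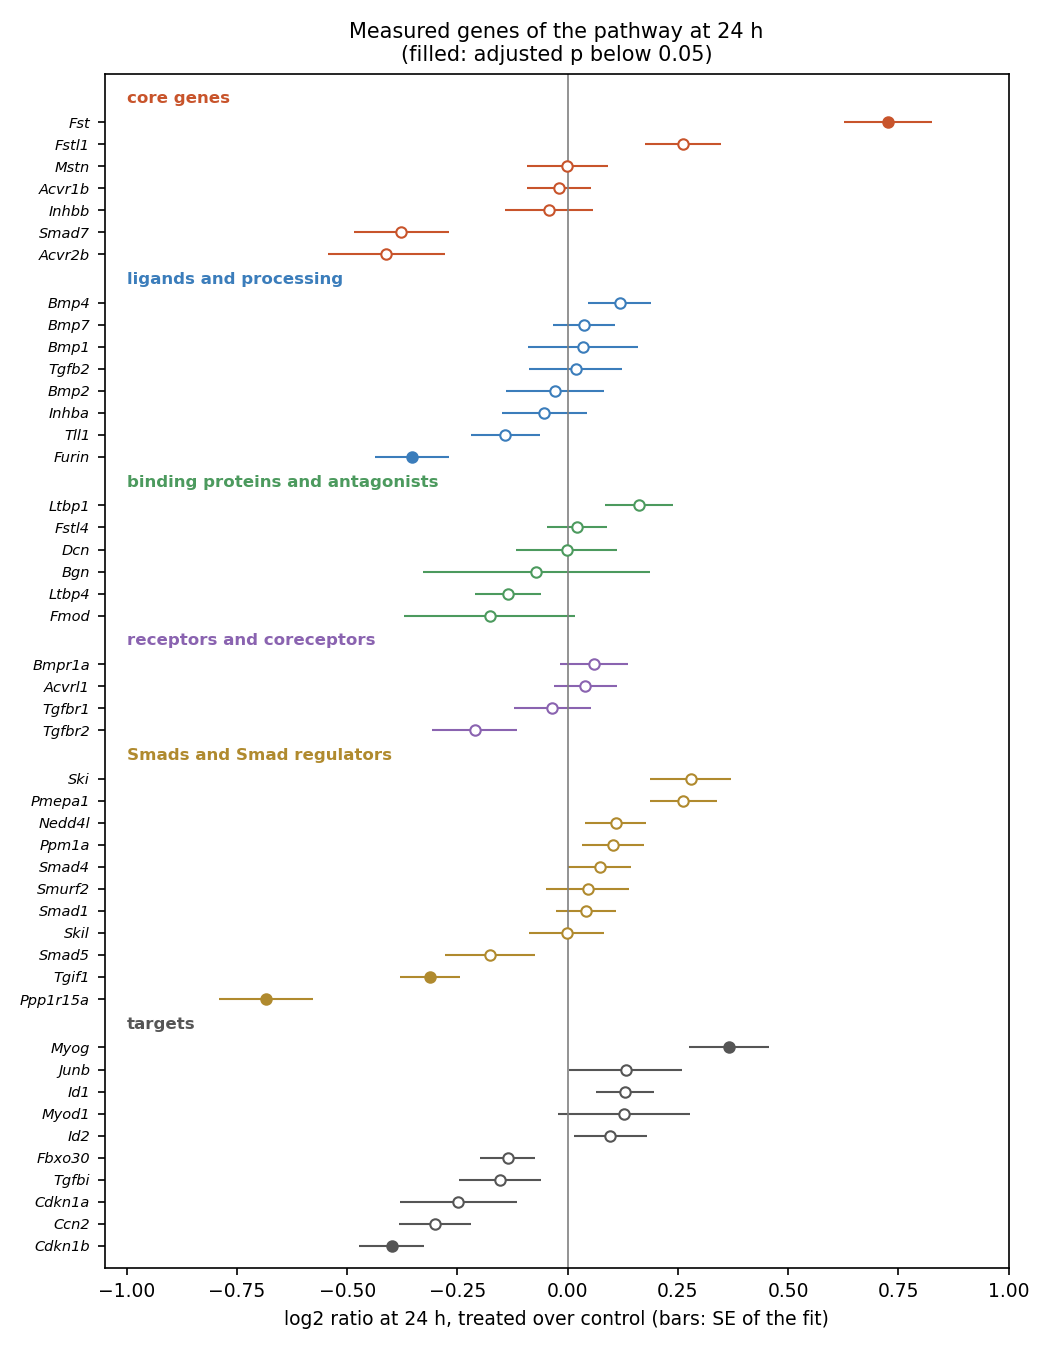
Fitted log2 ratio at 24 h (horizontal axis) with its SE for the 7 measured core genes and 39 of the other pathway genes by role, filled where the limma adjusted p was below 0.05. Fst (0.73) lies farthest to the right and Ppp1r15a (-0.68) farthest to the left, while most genes lie within 0.25 of 0.

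Genes with a pattern like that of Fst were sought by Pearson correlation of log2 ratios over the 8 arrays after removing the dye coefficient. The 3 most alike were Sparc (r = 0.990), a secreted matrix glycoprotein gene that also carries a follistatin-like domain, Sh3bgrl3 (r = 0.987) and Rftn1 (r = 0.984). The 8 arrays share 2 times and 2 slides, and the 3 were picked as the highest of all genes, so these values are a description. Sparc had a log2 ratio of -0.03 at 8 h and 0.78 at 24 h (adjusted p = 0.00977).

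Markers of some other cell types also differed between treated and control RNA. Of 10 fibroblast markers 9 were measured, and 3 were higher and 0 lower at 24 h, beside 4.13% and 2.90% of all genes. Their median log2 ratio per array was -0.42, -0.25, -0.05 and -0.12 at 8 h. At 24 h it was 0.15, 0.10, 0.03 and 0.13, so the signs were those of Fstl1 on all 8 arrays. The median of the fitted log2 ratios of the 9 markers was -0.18 at 8 h but -0.00 at 24 h. The markers thus did not all rise at 24 h. Their summed log2 level at 24 h was 12.6 to 13.1 in control and 13.4 to 14.1 in treated RNA.

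Of 9 macrophage markers 8 were measured, and 4 were higher and 0 lower at 24 h. The shares of all genes, here and for the lists below, were 4.13% higher and 2.90% lower. In lists this short, 1 call says little about a cell type. Their array medians were -0.63 to -0.13 at 8 h and 0.21 to 0.51 at 24 h, also below 0 on every 8 h array and above 0 on every 24 h array. Their summed log2 level at 24 h was 11.8 to 12.2 in control and 12.2 to 12.7 in treated RNA. Of 7 adipocyte markers 4 were measured, and 1 was higher and 0 lower at 24 h. Their array medians at 24 h were 0.63, 0.31, 0.51 and 0.15, lowest in replicate 4 as for Fst, and -0.35 to 0.27 at 8 h. Their summed log2 level at 24 h was 10.2 to 10.6 in control and 10.5 to 11.3 in treated RNA. Of the 11 measured muscle fibre markers 1 was higher and 2 were lower at 24 h, with array medians of -0.58 to -0.22, and their summed log2 level was 17.5 to 17.7 in control and 17.1 to 17.4 in treated RNA. The part of these shifts in the values of Fst and Fstl1 was not tested.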

How the data were processed

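The 8 arrays were two-colour Agilent rat arrays. Per the labels' protocols, RNA came from a Trizol extraction and a Quick Amp labelling. The submitters' processing notes name Agilent Feature Extraction 9.5.3.1. The deposited files give mean spot signals and local backgrounds as linear intensities with no normalization, and processed signals as intensities corrected for background and dye, per the file headers. The authors' deposited log2 ratios equalled those of the processed signals within 1.35e-05 and served only for that check.

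Background was corrected by normexp (offset 50) on the mean signal and median local background, and dyes by loess within each array (limma 3.58.1 under R 4.3.3). Control spots and the 731 to 927 of 42877 spots flagged as outliers on an array were left out. Spots of a probe were averaged. The filter asked that a probe be well above background on 3 or more of the 4 arrays of any of the 4 RNA groups. It kept 12074 of 30367 probes, and the brightest kept probe stood for its gene. Probes were named by accession (18384), by symbol (3008) or by the file's own symbol (133), and 8842 had no symbol. The limma model (lmFit, eBayes) covered all 8 arrays, with 1 coefficient per time and 1 for the dye of the treated RNA in each probe, after a test on simulated data. Tests were two-sided, with Benjamini-Hochberg adjustment over 10882 genes. Levels are log2 intensities per channel after loess and Aquantile, open to dye bias within an array. The number of arrays limits the precision.

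The 10 genes, the wider list of 80, the marker lists and the tests were chosen with earlier results of these data known. The genes named from the wider list are those past the threshold in any comparison and otherwise the 4 per role with the smallest unadjusted p at 24 h, except 1 gene that is counted but not reported here. The alternatives were the processed signals, median centring, an offset of 10, other filters and probe rules, no dye coefficient, array weights, each time alone, a replicate block and leaving out each array.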

Additional observations from a re-analysis of the deposited data

Results flagged for a closer look

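Fstl1 had opposite signs at the 2 times. It was lower in treated RNA on all 4 arrays at 8 h (log2 ratios -0.57 to -0.13) and higher on all 4 at 24 h (0.14 to 0.43). The difference between the times was 0.526 on the log2 scale (limma adjusted p = 0.0701), which does not pass the adjusted threshold.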

How the results depend on the processing

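Fst passed at 24 h in all 18 alternatives. The count of the 7 genes passing at 24 h, 1 as reported, was 2 with the processed signals (Fst and Smad7), 2 with median centring (Fst and Fstl1), 2 with an offset of 10 (Fst and Smad7), and 4 with array weights or with the 24 h arrays alone (Fst, Fstl1, Acvr2b and Smad7). It ran from 1 to 3 when single arrays were left out, the 3 being Fst, Fstl1 and Acvr2b without replicate 1 at 8 h. At 8 h it was 0 to 1 when single arrays were left out. Between the times it was 1 with an offset of 10 (Fstl1), 1 with array weights (Fst), and 0 to 1 when single arrays were left out. Of the 40 other pathway genes, 6 passed at 24 h as reported, 0 with median centring, and 1 to 8 when single arrays were left out. At 8 h 0 to 2 passed when single arrays were left out, the 2 being Bmp1 and Cdkn1a without replicate 2 at 8 h. Between the times 1 passed as reported, 2 with the processed signals, 0 with median centring, 2 with all kept probes tested, and 0 to 1 when single arrays were left out.

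Over all genes, median centring called 379 higher and 18 lower at 24 h, against 449 and 316 as reported. The number of genes called at 24 h was 397 with median centring, 1752 with array weights, 1588 with the 24 h arrays alone, and 191 to 1239 when single arrays were left out. At 8 h, 3 genes were called as reported, 21 with an offset of 10, 0 with median centring or with the 8 h arrays alone, 1 with the processed signals or with no dye coefficient, 1227 without replicate 2 at 8 h, and 0 or 1 without any other single array. Between the times the count, 141 as reported, ran from 28 to 595 when single arrays were left out, and was 0 with median centring, 86 with the processed signals, 224 with an offset of 10 and 336 with array weights. Same-numbered arrays of the 2 times had correlations of -0.26, 0.17, -0.16 and -0.08 in their deviations from the time means. The dye effect was left in these deviations, and each number had opposite dye orientations at the 2 times. The correlations therefore cannot show whether the numbers pair the samples. With the replicate number as a block, 0 of the 7 genes and 1 of the 40 passed between the times, the same counts as without it, with adjusted p = 0.0654 for Fst and 0.0667 for Fstl1, while 309 genes were called in place of 141. The cause of these differences was not tested. Probes of Fstl3, Acvr2a and Smad3 were not well above background, so whether those genes changed could not be measured on these arrays.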
